A study of Rattus norvegicus with 10 samples.

Results

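Sim1 (ENSRNOG00000037600) is 1 of the 32402 genes in a gene count table from the supraoptic nucleus (SON) of the rat hypothalamus, and it was followed through all 10 SONs of the experiment. It was chosen by its identifier. Each of 5 male Sprague Dawley rats received an adeno-associated virus (AAV) carrying a non-targeting short hairpin RNA (shRNA) in one SON, the control, and an AAV carrying an shRNA against Creb3l1 in the other, the knockdown. Both viruses were in the same vector type, which also encodes green fluorescent protein, and the labels give a time of 3 weeks for every sample. The SON was taken with a small tissue punch, and polyA RNA was sequenced with a strand-specific kit, giving 5 control and 5 knockdown libraries. All control labels end in L and all knockdown labels in R, so if these letters mark the side of the brain, side and treatment cannot be told apart. The promoter driving the shRNAs was not given in the sources used here.

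Sim1 encodes a transcription factor of the basic helix-loop-helix PAS family, which binds DNA as a dimer with Arnt or Arnt2. It is known for its part in the development of the magnocellular and parvocellular neurones of the SON and paraventricular nucleus, and in the adult hypothalamus for the control of food intake. Creb3l1 is a membrane-bound transcription factor of the endoplasmic reticulum that is released by cleavage and enters the nucleus.

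The libraries held between 29020948 and 34382889 counts assigned to genes. The median log2 fold change over all genes tested was 0.04. Creb3l1 itself, the target of the shRNA, was counted in every SON. In animals 1 to 5 it stood at 20.3, 26.5, 30.7, 33.5 and 23.4 CPM (counts scaled to the library total with TMM factors) in the control SON. In the knockdown SON it stood at 7.10, 13.8, 8.69, 16.7 and 13.6 CPM. Every knockdown SON was thus below every control SON, although Creb3l1 was not absent from any of them.

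Sim1 was lower in the knockdown SON of every animal. In the control SONs of animals 1 to 5 it had 52.7, 58.5, 44.5, 72.8 and 48.0 CPM, from between 1550 and 2422 counts per library. The knockdown SONs had 23.0, 18.6, 35.3, 29.9 and 15.6 CPM, from between 483 and 1061 counts. The groups did not overlap, and the highest knockdown SON, that of animal 3, was 9.23 CPM below the lowest control SON, which came from the same animal. Over all 16286 genes tested, 5.50% had every knockdown SON below every control SON. In bulk tissue, fewer cells that express Sim1 and less Sim1 RNA per cell cannot be told apart.

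**Figure D1:**
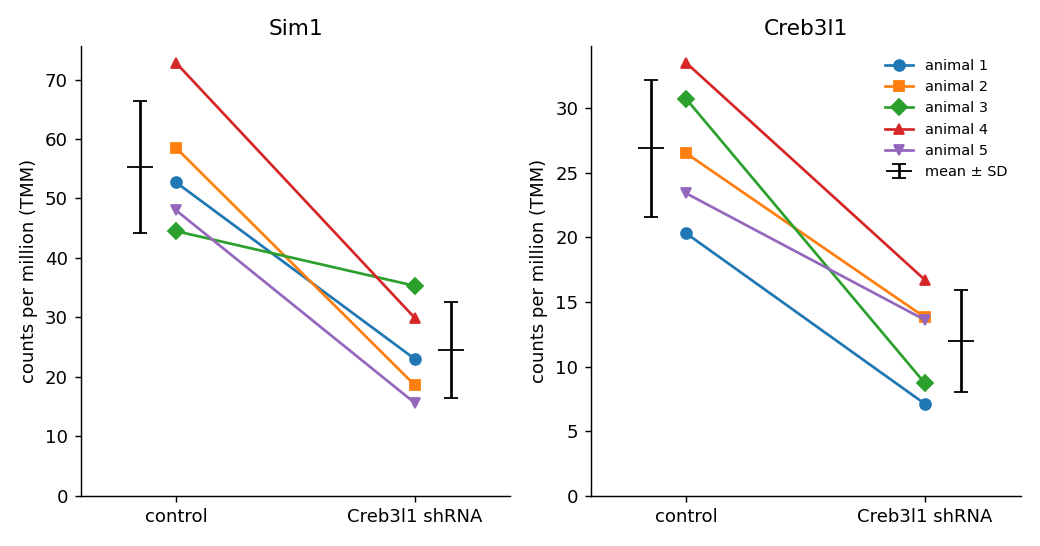
Sim1 (left) and Creb3l1 (right) in TMM-scaled CPM on axes that start at 0, with 1 line for each of the 5 animals from its control SON to its Creb3l1 shRNA SON and black marks for the mean ± SD. Both genes fall in every animal, and the Sim1 line of animal 3, from 44.5 to 35.3 CPM, is the flattest.

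The mean level of Sim1 was 55.3 ± 11.1 CPM (SD, n = 5) in control SONs and 24.5 ± 8.10 CPM (SD, n = 5) in knockdown SONs, or 44.3% of control. Creb3l1 fell to 44.6% of its control mean. Relative to its mean, Sim1 spread more widely after knockdown: the coefficient of variation was 33.1% against 20% in control SONs, and the highest knockdown SON had 2.27 times the lowest. A difference between these spreads was not tested. Ranked by level, neighbouring SONs within a group lay less than 1 SD of that group apart, with 1 exception: the control SON of animal 4 was 14.4 CPM above the next. The step of 9.23 CPM between the groups was smaller than the SD of the control SONs.

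The log2 fold change of Sim1 was -1.18 (SE 0.23, 95% interval -1.68 to -0.68), with an adjusted p of 0.0136 in edgeR. At an adjusted p under 0.05, 7.86% of all genes tested were called, 4.49% lower in the knockdown SONs and 3.36% higher. Of the 16286 genes, 148 had a lower log2 fold change than Sim1 and 402 had a smaller p. An exact two-sided permutation test of the log2 level over all splits of the 10 SONs into groups of 5 gave p = 0.00794, the smallest it can give. That test treats the 2 SONs of an animal as unpaired. With the animal as a block, as the pairing of the SONs allows, the log2 fold change was -1.22 and the adjusted p rose to 0.0711 in edgeR, so that Sim1 was no longer called. Creb3l1 lost its call in the same way, from an adjusted p of 0.0173 at a log2 fold change of -1.16 (SE 0.24) to 0.0586 with the block. Only 0.0553% of all genes were called with the block, and 0.043% were called lower.

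The size of the fall differed between animals. In animal 2 the knockdown SON held 31.8% of the Sim1 level of the control SON, and in animal 5 it held 32.4%. Animals 4 and 1 were close to each other at 41.1% and 43.7%. Animal 3 kept 79.3%, a log2 change of -0.33 against changes of -1.19 to -1.65 in the other 4. The mean change per animal was -1.22 ± 0.53 (SD, n = 5) on the log2 scale. An exact sign-flip test over 5 animals gave p = 0.0625, the smallest it can reach, so this test could not pass 0.05. Over all genes, 10.1% were lower in the knockdown SON in 5 of 5 animals.

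Set beside the change in Creb3l1, the order of the animals was close to reversed. Animal 3, where Sim1 changed least, had the deepest loss of Creb3l1, to 28.3% of its control SON. Animal 1 had the next deepest loss, to 35.0%, and the next smallest fall of Sim1. Animals 5 and 2, with the largest falls of Sim1, kept the most Creb3l1, at 58.4% and 52.2%. Animal 4 was in the middle for both genes, with 49.7% of Creb3l1 left. The log2 change of Sim1 minus that of Creb3l1 was -0.01 ± 0.95 (SD, n = 5) on average, and ran from -0.85 in animal 5 to 1.48 in animal 3. An exact sign-flip test of this difference gave p = 1.0. Across the 5 animals, Pearson's r between both log2 changes was -0.91 (exact permutation p = 0.0167), a value that rests on 5 animals and was not checked in others.

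**Figure D2:**
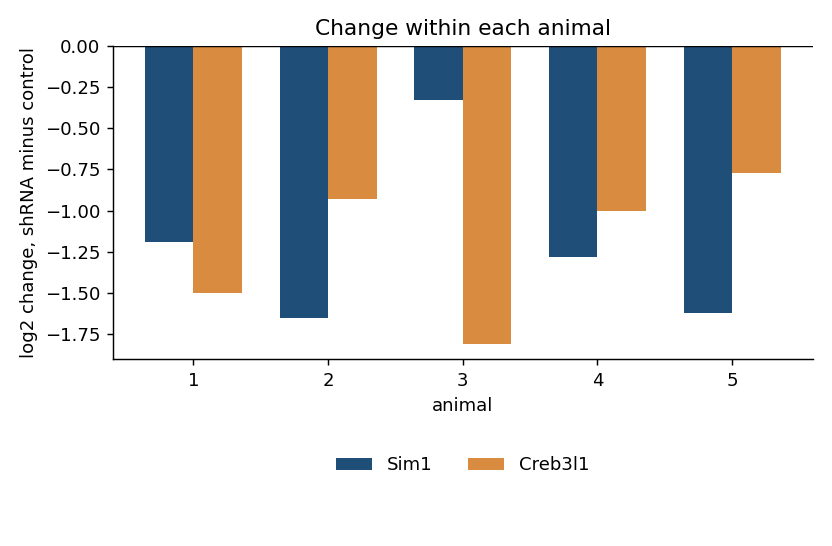
Log2 change of TMM-scaled CPM from the control SON to the Creb3l1 shRNA SON of each of the 5 animals, for Sim1 (blue) and Creb3l1 (orange), with 1 value per bar and no error. Animal 3 has the smallest bar for Sim1 (-0.33) and the largest for Creb3l1 (-1.81).

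Whether Sim1 follows the level of Creb3l1 among SONs with the same treatment was asked with each SON's deviation from its group mean. Among knockdown SONs, that of animal 3 was 0.59 above the group mean of Sim1 on the log2 scale and 0.39 below that of Creb3l1. The SON of animal 5 was its opposite, at -0.59 for Sim1 and 0.26 for Creb3l1. In animal 4, both genes were above the group mean in both SONs. Over the 10 SONs, Pearson's r was -0.10 (exact permutation p = 0.812 over all arrangements within the groups) and Spearman's rho was -0.10 (exact permutation p = 0.807). Leaving out the 2 SONs farthest from the median of Creb3l1, the knockdown SONs of animals 1 and 3, gave r = 0.51, and leaving out any 1 SON gave values from -0.36 to 0.16. The sign of this r thus rested on single SONs, and it counts the SONs as unpaired. With the animal means removed as well, as the pairing allows, r was the -0.91 of the changes per animal given above, so the unpaired and paired values differ in whether they pass 0.05. The total count of the library, the other relation tested, had r = -0.46 with Sim1 (exact permutation p = 0.212), and after Benjamini-Hochberg adjustment over both relations the p-values of r were 0.812 and 0.424.

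**Figure D3:**
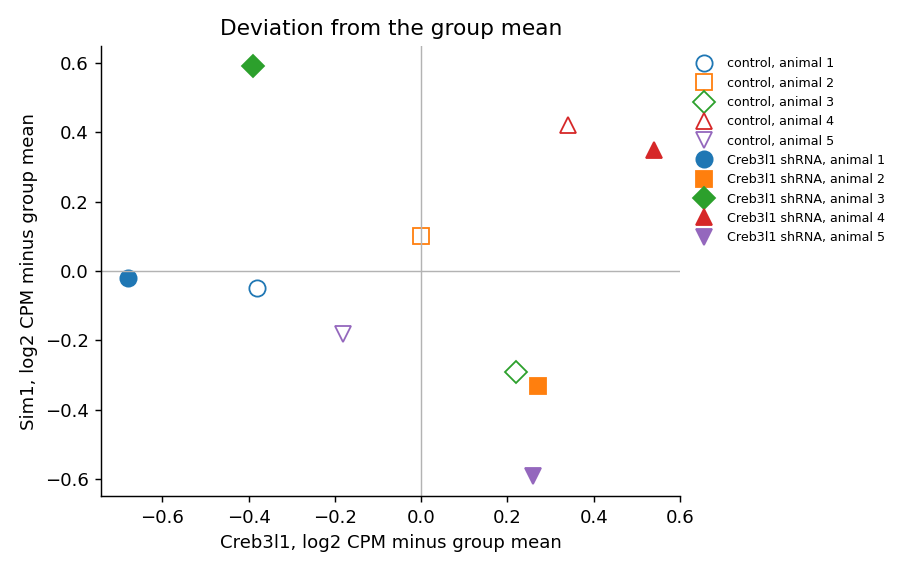
Each SON's deviation from its group mean in log2 CPM, with Creb3l1 on the horizontal and Sim1 on the vertical axis; open symbols are control and filled symbols Creb3l1 shRNA SONs, with 1 colour and shape per animal. The knockdown SON of animal 3 lies alone at the upper left (0.59 for Sim1 and -0.39 for Creb3l1), and r over the 10 points is -0.10 without, and -0.91 with, removal of the animal means.

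The genes whose pattern was most like that of Sim1 were found with the same deviations, as Pearson's r over the 10 SONs for 14817 genes with a mean of at least 1 CPM. These r values are a description of 10 libraries from 5 animals, with no test, and in a ranking of so many genes over so few SONs high values also arise without a relation. The 20 highest genes had r from 0.89 to 0.96, the next had 0.88, and Creb3l1 was 8809th from the top. The 20 lowest ran from -0.80 to -0.91. Membership depended on single SONs: without the knockdown SON of animal 3, 4 of the 20 genes stayed among the 20 highest, without the control SON of animal 4, 5 stayed, and the largest number kept on leaving out any 1 SON was 16. By Spearman's rho 7 of them were among the 20 highest. The list is therefore a set of examples rather than a fixed group.

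**Figure D4:**
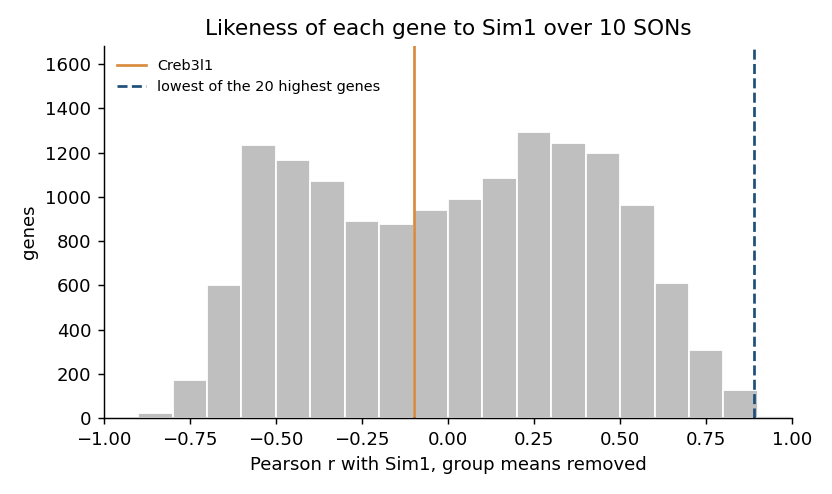
Number of genes, of 14817, by their Pearson r with Sim1 over the 10 SONs after removal of the group means, in bins of 0.1. Genes pile up on both sides of 0; the orange line marks Creb3l1 at -0.10 and the dashed line the lowest of the 20 highest genes at 0.89.

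Of the 20 highest genes, 8 were lower and 1 was higher in the knockdown SONs by edgeR, beside 4.61% lower and 3.60% higher among all genes ranked. With the animal as a block, 0 of the 20 were called, and DESeq2 called 11, where it called 11.8% of all genes. Symbols were at hand only for the genes with the smallest adjusted p in the study's own comparison, so the 11 of these 20 that could be named are mostly changed genes, and nothing can be read from that.

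Nrg1, the ErbB receptor ligand neuregulin 1, had the highest likeness (r = 0.96, and between 0.94 and 0.97 on leaving out any 1 SON). Its control SONs had 20.6, 21.5, 19.8, 27.1 and 21.7 CPM, and its knockdown SONs 11.8, 9.12, 19.0, 14.3 and 7.81 CPM. As for Sim1, animal 4 was the highest control SON and animal 3 the highest knockdown SON, and the order of the 5 knockdown SONs was that of Sim1. Its log2 fold change was -0.84 (SE 0.22, adjusted p = 0.0453 in edgeR), a call that held in 1 of the 10 fits that left out a SON and gave 0.11 with the block.

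Cdh9, a cadherin of cell contacts, followed with r = 0.93. It had 38.1, 31.1, 31.2, 46.9 and 34.4 CPM in control and 14.7, 12.6, 27.3, 24.8 and 10.1 CPM in knockdown SONs, without overlap, and its log2 fold change was -1.02 (adjusted p = 0.0453 in edgeR, 0.0923 with the block). Lrguk, a leucine-rich repeat protein with a guanylate kinase domain, had the same r of 0.93 at a far lower level, a mean of 2.31 CPM in control and 1.3 CPM in knockdown SONs (adjusted p = 0.0395 in edgeR). The calls of Cdh9 and Lrguk each held in 2 of the 10 fits that left out a SON. Stab2, a scavenger receptor, reached r = 0.92, but its groups overlapped and its log2 fold change of -1.0 had an adjusted p of 0.0584.

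Ltn1, the ubiquitin ligase of ribosome-associated quality control, moved the other way between the groups. It had r = 0.92 with Sim1 within them, yet rose from 48.4 ± 1.90 to 63.6 ± 2.93 CPM (SD, n = 5 each), a log2 fold change of 0.39 (SE 0.06, adjusted p = 0.00463 in edgeR, 0.0829 with the block). A gene can thus share the order of the SONs with Sim1 inside each group and differ in direction between them.

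Calb1, the calcium-binding protein calbindin, had r = 0.90. It fell from 129, 112, 115, 133 and 109 CPM in control SONs to 53.4, 48.6, 90.1, 66.6 and 34.4 CPM in knockdown SONs (log2 fold change -1.03, SE 0.22, adjusted p = 0.0192 in edgeR, 0.0723 with the block). The 5 knockdown SONs again had the order of Sim1. Ptprn, a membrane protein of dense-core vesicles, had r = 0.90 and a log2 fold change of -0.90 (adjusted p = 0.027 in edgeR). Fign, a microtubule-severing enzyme, had r = 0.89 and a log2 fold change of -1.28 (adjusted p = 0.0256 in edgeR). On leaving out a SON, the call of Ptprn held in 5 of the 10 fits and that of Fign in 7.

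At the other end, the named genes with the lowest r were Nfyc, a subunit of the CCAAT-binding factor NF-Y (r = -0.91), Adamtsl5 (-0.81), Idh2, the mitochondrial isocitrate dehydrogenase (-0.81), Dph2, of diphthamide synthesis (-0.80), and LOC100911319 (-0.79). Nfyc rose from 50.4 ± 2.44 to 61.4 ± 5.03 CPM (SD, n = 5 each; adjusted p = 0.0385 in edgeR, 0.157 with the block). Its call held in 1 of the 10 fits that left out a SON. Its knockdown SON of animal 3 was the lowest of the 5 at 53.5 CPM, where Sim1 was the highest. Dph2, in contrast, fell by 0.44 on the log2 scale (adjusted p = 0.0109 in edgeR, 0.0935 with the block).

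Of the genes related to Sim1 by family or function, few could be named, and these were named because they are among the genes with the smallest adjusted p in the study's own DESeq2 comparison. How many of the matched members of any list below were called is therefore set in large part by the naming, and nothing is read from it beside the share of all genes. Among 18 partners and relatives in the basic helix-loop-helix PAS family 1 was matched, Ncoa3, a nuclear receptor coactivator, and none of the dimer partners was. Ncoa3 had 51.1, 37.9, 42.8, 42.3 and 37.1 CPM in control SONs and 55.1, 55.8, 49.1, 59.4 and 76.8 CPM in knockdown SONs. Its groups overlapped by 1 control SON, and its log2 fold change was 0.49 (SE 0.13, adjusted p = 0.0459 in edgeR, 0.17 with the block). That call held in 2 of the 10 fits that left out a SON. Of 14 transcription factors of the neuroendocrine lineage only Nhlh2, a helix-loop-helix factor studied in body weight control, was matched. It had a mean of 13.3 ± 2.54 CPM in control and 8.77 ± 2.03 CPM after knockdown (SD, n = 5 each), and its log2 fold change of -0.60 did not pass the threshold (adjusted p = 0.0944 in edgeR, 0.0303 in DESeq2). Of 8 genes studied downstream of Sim1, among them Avp, Oxt and Mc4r, 0 were matched, so the SON could not be checked here against its defining hormones, and Arnt2, Otp and Pou3f2 were not analysed here.

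The list of magnocellular peptides and granule proteins, which also holds Calb1 and the receptors Oprk1 and Oxtr, gave the most matches, 10 of 25. By edgeR 5 of the 10 were lower and 0 higher (4.49% of all genes were lower). The 5 were Pdyn, Calcb, Oprk1, Oxtr and Calb1, the last already given above as a gene that follows Sim1. The other 15 members are not analysed here. DESeq2 called all 10 lower (6.84% of all genes), as the naming all but fixed. With the block edgeR called 1, Calcb, a calcitonin gene-related peptide (adjusted p = 0.0415). Its level was low, a mean of 1.1 CPM in control and 0.204 CPM in knockdown SONs, from 5 to 60 counts per library. Pdyn, the precursor of the dynorphins, had 544, 324, 416, 600 and 465 CPM in control SONs. Its knockdown SONs had 90.6, 82.8, 259, 138 and 27.4 CPM, and the log2 fold change was -1.97 (SE 0.48, adjusted p = 0.0331 in edgeR). Again, the knockdown SON of animal 3 was the highest and that of animal 5 the lowest, and r with Sim1 was 0.84. Oprk1, the receptor for dynorphin, and Oxtr, the oxytocin receptor, had log2 fold changes of -0.79 and -1.73 (adjusted p = 0.0109 and 0.0422 in edgeR). On leaving out 1 SON, the call of Oprk1 held in 10 of 10 fits, that of Pdyn in 3 and that of Oxtr in 2. Oxtr was low, with a lowest count of 4 and 0.129 CPM in the knockdown SON of animal 5.

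Cartpt, the precursor of the CART peptides, showed the weight of that one SON most clearly. It had 36.6, 17.8, 24.5, 28.0 and 23.0 CPM in control SONs, and 6.57, 7.07, 26.2, 11.2 and 6.84 CPM after knockdown. The log2 fold change of -1.17 missed the threshold (adjusted p = 0.102 in edgeR) and passed it without the knockdown SON of animal 3 (0.00289). Leaving out any other SON gave 0.115 to 0.215. The knockdown SON of animal 3 also had the deepest loss of Creb3l1, to 28.3% of its control SON. The granule proteins Scg3, Scg5, Chgb and Resp18 behaved alike. Their adjusted p in edgeR ran from 0.0529 for Scg3 to 0.0977 for Scg5 with all SONs. Without that knockdown SON it ran from 0.00622 for Scg3 to 0.0163 for Chgb. No other fit with 1 SON left out called any of them. For Sim1 the adjusted p without the knockdown SON of animal 3 was 0.00513. All 10 fits with 1 SON left out called Sim1, with log2 fold changes from -1.37 to -1.07.

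Of 14 receptors and signals of energy balance 3 were matched in the same way, and 2 were lower by edgeR (4.49% of all genes). Glp1r, the receptor for glucagon-like peptide 1, had 9.66, 5.22, 7.24, 12.6 and 7.48 CPM in control SONs and 0.979, 0.90, 4.09, 1.3 and 0.613 CPM in knockdown SONs. Its fall, a log2 fold change of -2.42 (SE 0.50, adjusted p = 0.0182 in edgeR, 0.0706 with the block), was larger than that of Sim1, and r with Sim1 was 0.80. The other was Oxtr, above. Mc4r was not matched.

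Of 16 genes of the secretory pathway and unfolded protein response 5 were matched, and edgeR called 2 lower (4.49% of all genes). One of them is Creb3l1, the target of the shRNA, and the other Eif2ak3, the stress kinase PERK. Eif2ak3 fell by 0.43 on the log2 scale (SE 0.07, adjusted p = 0.00553 in edgeR, 0.0695 with the block), with r = 0.53 to Sim1. The chaperones Hspa5 and Canx and the translocon subunit Ssr2 had log2 fold changes of 0.36, 0.22 and 0.46 and did not pass the threshold in edgeR (adjusted p = 0.0936, 0.19 and 0.0634). DESeq2 called these 3 higher (4.94% of all genes), which again the naming all but fixed.

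**Figure D5:**
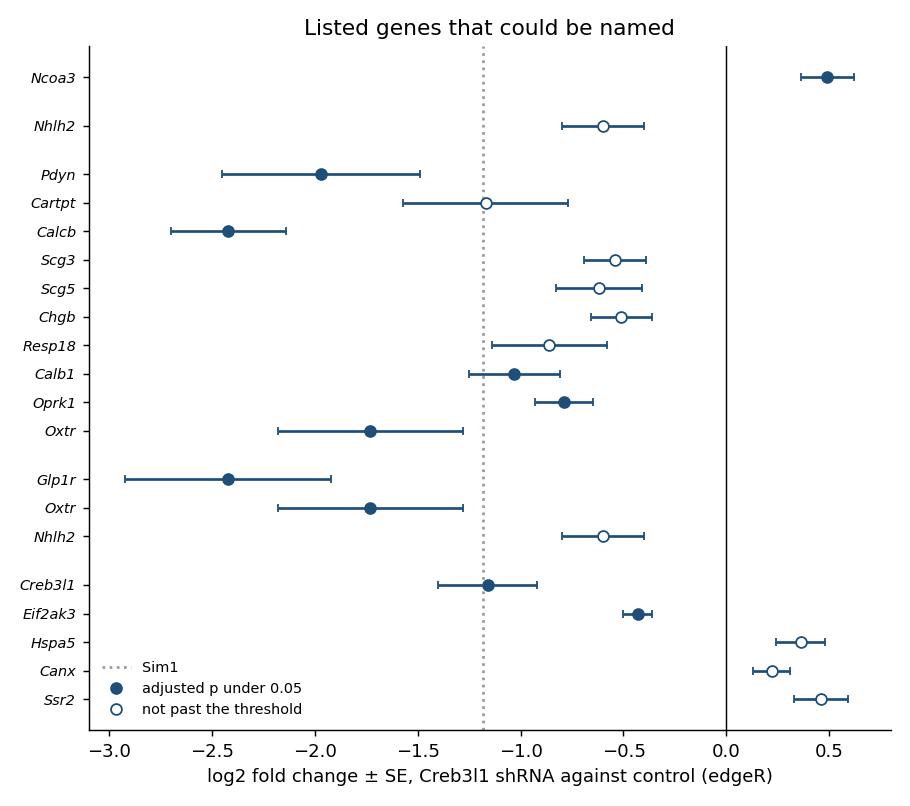
Log2 fold change ± SE (edgeR) of the listed genes that could be matched to a symbol, in the order family relatives, lineage factors, magnocellular genes, energy balance genes and secretory pathway genes; filled points passed an adjusted p of 0.05, and the dotted line marks Sim1 at -1.18. Oxtr and Nhlh2 stand in both of their lists, and Calcb and Glp1r, both at -2.42, lie farthest to the left.

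A further 8 lists held 76 genes, which were markers of neurones and other cells and 5 control genes. Of these 76, 3 were matched, again from among the most changed genes. Nefm, a neurofilament of neurones, was higher after knockdown (log2 fold change 0.66, adjusted p = 0.0263 in edgeR). So was Pdgfra, of oligodendrocyte precursors (0.42, adjusted p = 0.0469 in edgeR), while Aspa, of oligodendrocytes, did not pass the threshold (0.34, adjusted p = 0.0672 in edgeR). With the block these were 0.134, 0.17 and 0.218. On leaving out a SON, the call of Nefm held in 7 of 10 fits and that of Pdgfra in 1. Their r with Sim1 within the groups was 0.13 for Nefm, 0.14 for Pdgfra and -0.64 for Aspa. Their part in the fall of Sim1 was not tested. The astrocyte, microglia and endothelium lists had 0 matches.

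The 250 bases upstream of a Sim1 start site in RefSeq, at chr20:55410327-55410576 on the plus strand of GRCr8, were searched on both strands for 11 words, and 0 were found. The words were ACGTG, the core bound by Sim1 with its partners (in 16.6% of all 33469 such windows), TGACG (18.2%), CCACG (27.2%), the E-box CANNTG (65.5%), CACGTG (5.59%), GGGCGG (30.5%), CCAAT (34%), TATAAA (12.9%), and 3 words the study had placed in reporter constructs, ACCCGGAAGTGGA (0.00598%), CACGTCACCA (0.0508%) and GCCCCGCCCCC (2.39%). CACGTG holds ACGTG and is itself an E-box. The window lies inside the RefSeq span of the gene, where a longer transcript starts further upstream, so it may not be the promoter used in the SON. That no word was found says only that these letters are not in this window.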

How the data were processed

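Total polyA RNA from 10 SON punches was sequenced, 1 library per SON. The authors deposited raw counts per Ensembl gene. The submitters' processing notes name CASAVA, FastQC, STAR, featureCounts and DESeq2 1.28.1, and the study's methods give alignment and annotation on the rat genome Rn6. The column names of the table are shifted against the values, and columns were assigned by position after a check against the study's own normalised values (0.0% variation of the ratio for the named sample, at least 11.1% for any other). The symbols come from a shortened table of 1999 genes, of which 1992 have one. Members and lists were chosen with earlier results of these data known.

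Counts were filtered with filterByExpr, scaled with TMM factors and tested with edgeR 4.0.16 (R 4.3.3, quasi-likelihood, Benjamini-Hochberg over all genes tested, threshold 0.05, groups only). Levels are CPM, and log2 levels add a prior count of 2. Alternatives were DESeq2 1.42.0, limma-voom 3.58.1, 1 surrogate variable (sva 3.50.0), other scalings and filters, the animal as a block, and leaving out each SON. The fits and the ranking by r were tested on simulated data. The ranking found 8 of 20 planted genes at a shared SD of 0.5 on the log2 scale, the smallest setting tried. It found 18 of 20 at a shared SD of 1, and 20 of 20 at 2. The deviations of Sim1 ran from -0.29 to 0.42 in control and from -0.59 to 0.59 in knockdown SONs. Even the smallest setting is thus wider than the spread of Sim1 in control SONs. The planted genes all had a mean over 20 CPM and the simulated SONs were unpaired, unlike the data. Samples are paired because both SONs came from the same animal; the deviations of the paired SONs correlated at -0.12, 0.45, -0.44, -0.32 and -0.55 across genes. Replicates are separate animals. Named genes were Sim1, Creb3l1, the 10 highest and 5 lowest named genes by r, and list members that could be matched to a symbol, of which 2 genes are not reported here; for the others, values are given where they passed the threshold or the list needed them.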

Additional observations from a re-analysis of the deposited data

Results flagged for a closer look

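Among 68 groups of 5 SONs (34 named genes, each in both groups), 6 held a SON whose gap to the nearest of the others was over 0.71 of the range of the group. Chance gives about 1 in 20 for normal values in groups that are independent. These 68 groups share the same 10 SONs, and some genes were picked for their likeness to Sim1. The count of 6 therefore cannot be set against that rate. The control SON of animal 4 stood above the others for Nrg1 (27.1 CPM, the others 19.8 to 21.7), Stab2 (6.67 CPM, the others 3.94 to 4.46) and Oxtr (4.0 CPM, the others 2.18 to 2.39). The knockdown SON of animal 3 stood above the others for Cartpt (26.2 CPM, the others 6.57 to 11.2) and Glp1r (4.09 CPM, the others 0.613 to 1.3). The knockdown SON of animal 5 stood below the others for Nhlh2 (5.23 CPM, the others 9.16 to 10.3). These are the SONs at the upper and lower ends of Sim1 in their groups, although Sim1 itself met the criterion in neither group. Nrg1 and Stab2 were picked for their likeness to Sim1 over the same SONs.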

How the results depend on the processing

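The fall of Sim1 kept its direction under every alternative run. Of the planned fits, only that with the animal as a replicate block took the pairing into account, and it did not call Sim1. There the log2 fold change was -1.22 (adjusted p = 0.0711 in edgeR), and for Creb3l1 -1.21 (0.0586). The other planned fits, which treat the SONs as unpaired, kept the call. A block together with 1 surrogate variable, chosen after the data and the loss of the call had been seen, gave -1.18 (0.00375) and -1.25 (0.0019) in edgeR, and so cannot stand in for the planned block. Leaving out 1 SON gave -1.37 to -1.07 for Sim1 and -1.33 to -1.02 for Creb3l1 (adjusted p up to 0.0498). The exact tests kept their direction, at -1.36 to -1.07 for the level and -1.44 to -1.11 for the change per animal.

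The number of genes past the threshold, 1280, became 2188 with DESeq2, 9 with the replicate block, 3558 with 1 surrogate variable and 2906 with both, and 519 to 1699 on leaving out 1 SON. Of the magnocellular genes 10 were called with DESeq2, with 1 surrogate variable and with both, and 1 with the block. The secretory pathway count was 5 with DESeq2, 4 with 1 surrogate variable and with both, and 0 with the block. The energy balance count was 0 with the block, and 1 without a filter and with at least 10 counts in every sample. The gene lost without a filter was Oxtr (adjusted p = 0.0504 in edgeR). Its lowest count of 4 also kept it out of the fit with at least 10 counts. Ncoa3, the one PAS gene, was not called (0) with RLE factors, with the block, without a filter, on library size only and with at least 10 counts, and Nhlh2 was called (1) with DESeq2, 1 surrogate variable and both. Causes of the other changes in these counts were not tested.

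The r of Sim1 with Creb3l1 turned to 0.51 without the 2 SONs farthest from the median, and ran from -0.36 to 0.16 on leaving out 1 SON. With the replicate block, that is with group and animal means removed, it was -0.91 (exact permutation p = 0.0167). This is the relation of the 5 changes per animal, and it rests on 5 independent values. Of the 20 genes that follow Sim1, 7 stayed by Spearman's rho, 1 with the replicate block, and 4 to 16 on leaving out 1 SON. No named gene changed direction in any fit. The block took the call from 19 of the 32 other named genes, and DESeq2 added 12. Depth limits little for Sim1, with at least 483 counts in every library.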
